A study of Mus musculus with 11 samples.

Results

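This section describes 33 genes for glutamate receptors and their auxiliary subunits, of 24421 genes counted in sorted mouse J-RGCs. The genes were chosen by symbol, and all 33 were found in every count file. They encode 4 AMPA receptor subunits (Gria), 7 NMDA receptor subunits (Grin), 5 kainate receptor subunits (Grik), the delta receptor subunit Grid1 and 6 metabotropic receptors (Grm). The other 10 encode auxiliary subunits, 6 of the Cacng family, 2 cornichons and 2 Neto proteins.

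J-RGCs are a type of retinal ganglion cell (RGC), the output neurons of the eye, known for the adhesion molecule encoded by Jam2. Tbr1 encodes a T-box transcription factor, and the comparison asks which transcripts of these cells differ in its absence. The mutants are labelled Tbr1 KO and the controls WT, both of mixed C57BL/6 and CD1 background and at postnatal day 4 to 5. Cells of every animal carried a green fluorescent protein from a transgenic line specific for J-RGCs and were collected by flow cytometry in pools of 100. The 6 Tbr1 KO libraries came from 4 animals: libraries 1 and 2 are from KO animal a, 3 and 4 from b, 5 from c and 6 from d. The 5 WT libraries came from 4 animals, with library 1 from WT animal a, 2 and 3 from b, 4 from c and 5 from d. Libraries of 1 animal were summed, so each comparison set 4 animals against 4. The labels do not say which exons of Tbr1 were removed or whether the mutation reached cells other than J-RGCs.

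Glutamate is the transmitter of bipolar cells, which drive ganglion cells in the mature retina, and at the age studied here these synapses are still forming. AMPA receptors carry the fast synaptic current. NMDA receptors are slower, pass calcium and need a co-agonist, and kainate receptors form a related channel family. Metabotropic receptors signal through G proteins. Auxiliary subunits bind the channel proteins and set their traffic, gating and location: transmembrane AMPA receptor regulatory proteins (TARPs, from Cacng genes) and cornichons act on AMPA receptors, and Neto1 and Neto2 act on kainate receptors.

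Reads counted over genes ranged from 8609845 to 34718693 per library. Levels are given as CPM (counts scaled to a fixed total of reads) after TMM scaling, which sets the libraries to a common composition, and as CPM per kb of merged exons where genes are compared with each other. Tbr1 was still counted in every mutant animal, at 94.2 to 145 CPM in Tbr1 KO animals against 155 to 193 CPM in WT animals, a log2 fold change of -0.50 ± 0.15 that was not called (edgeR adjusted p = 0.368). All mutant animals lay below all WT animals. Ganglion cell markers were counted in every animal, for example Rbpms at 826 to 1134 CPM in Tbr1 KO animals and 764 to 966 CPM in WT animals. Rbpms speaks to ganglion cells as a class and not to the J-RGC type. Jam2 was at 87.4 to 130 CPM in Tbr1 KO animals, against 452 to 619 CPM in WT animals (edgeR adjusted p = 6.41e-05). KO animal c stood apart in photoreceptor markers, with a summed level of 1464 CPM against 75.9 to 397 CPM in the other Tbr1 KO animals and 83.8 to 448 CPM in WT animals.

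Neto2 transcript was lower in the sorted pools of Tbr1 KO animals, and Neto2 was the 1 gene of the 33 to pass the test. Neto2 encodes a single-pass membrane protein that binds kainate receptors and slows their deactivation and desensitisation. Of the 31 members with enough reads to test, 1 was called (lower) and 30 were not, where 0.287% of all 13957 tested genes were called in either direction and 0.201% were called lower. A call means an edgeR quasi-likelihood p that stays under 0.05 once adjusted (Benjamini-Hochberg) over all tested genes. None of the members was called higher, against 0.0860% of all genes, and DESeq2 called 2 members (Neto2 and Gria1) and 1.12% of all genes. At an unadjusted p under 0.05 there were 5 members, Neto2, Gria1, Cacng2, Grin3a and Grik3, or 16.1% of the members tested, where 7.09% of all tested genes passed. The members' median log2 fold change was 0.01, with 16 positive and 15 negative, against a median of -0.00071 over all tested genes.

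Neto2 lies on chromosome 8 of GRCm38, from 85636588 to 85700924 on the minus strand. It was at 23.3, 26.1, 20.7 and 31.6 CPM in KO animals a to d, against 84.8, 56.4, 79.8 and 49.5 CPM in WT animals a to d. The highest mutant animal lay below the lowest WT animal. The means were 25.4 ± 4.66 CPM in Tbr1 KO animals and 67.6 ± 17.3 CPM in WT animals (SD, n = 4 each), a log2 fold change of -1.41 ± 0.23 (SE), or 2.66-fold lower. Its edgeR quasi-likelihood adjusted p was 0.0201 (Benjamini-Hochberg), and exact permutation of the animals (two-sided, on log2 CPM) gave p = 0.0286, the smallest that 4 against 4 allow. Every gene without overlap by animal gets that permutation p, Gria1 and Cacng2 included, and 5.06% of all tested genes showed no overlap. The Neto2 values rest on 4207 counts over the mutants and 8605 over the WT animals.

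The single libraries gave the same order. The 6 Tbr1 KO libraries had 22.4, 25.03, 20.3, 35.8, 20.8 and 31.7 CPM of Neto2, against 84.5, 47.0, 88.7, 79.5 and 49.4 CPM in the 5 WT libraries. The lowest and the highest WT library, 47.0 and 88.7 CPM, both came from WT animal b. Likewise, the lowest and the highest Tbr1 KO library, 20.3 and 35.8 CPM, both came from KO animal b. In those animals the pools differed as much as animals of the genotype did. The pair of KO animal a was closer, at 22.4 and 25.03 CPM. The fall kept its sign and a log2 fold change of -1.53 to -1.28 when any 1 animal was left out. The call did not hold without KO animals a, b or c (edgeR adjusted p of 0.0891, 0.0901 and 0.0951) or without WT animals b or c (0.0585 and 0.0815), and it held without the other 3.

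Summed markers of ganglion cells overlapped between genotypes, at 12399 to 13822 CPM in Tbr1 KO animals and 11393 to 13574 CPM in WT animals. Nefl and Sncg made up most of those sums. Of the 12 ganglion markers, 6 had a higher mean in the mutants. An unadjusted p under 0.05 was reached by 7 of them, where 7.09% of all tested genes reached it. The edgeR test called 1, Jam2, lower, and DESeq2 called 2, against 0.287% and 1.12% of all genes. Jam2, Pou4f2 and Thy1 were lower in the mutants without overlap, where 2.48% of all tested genes were. Pou4f2 was at 124 to 200 CPM in Tbr1 KO animals and 264 to 295 CPM in WT animals (edgeR adjusted p = 0.0680), and Thy1 at 260 to 359 CPM in Tbr1 KO animals and 382 to 458 CPM in WT animals (edgeR adjusted p = 0.355). Astrocyte, vascular and microglia markers summed to 13.9 to 40.8 CPM in Tbr1 KO animals and 23.7 to 67.4 CPM in WT animals, with a higher mutant mean for 2 of 10. The part of these markers and of other cells in the fall of Neto2 was not tested. In pools of sorted cells, fewer cells of a kind and less RNA per cell cannot be told apart.

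**Figure D1:**
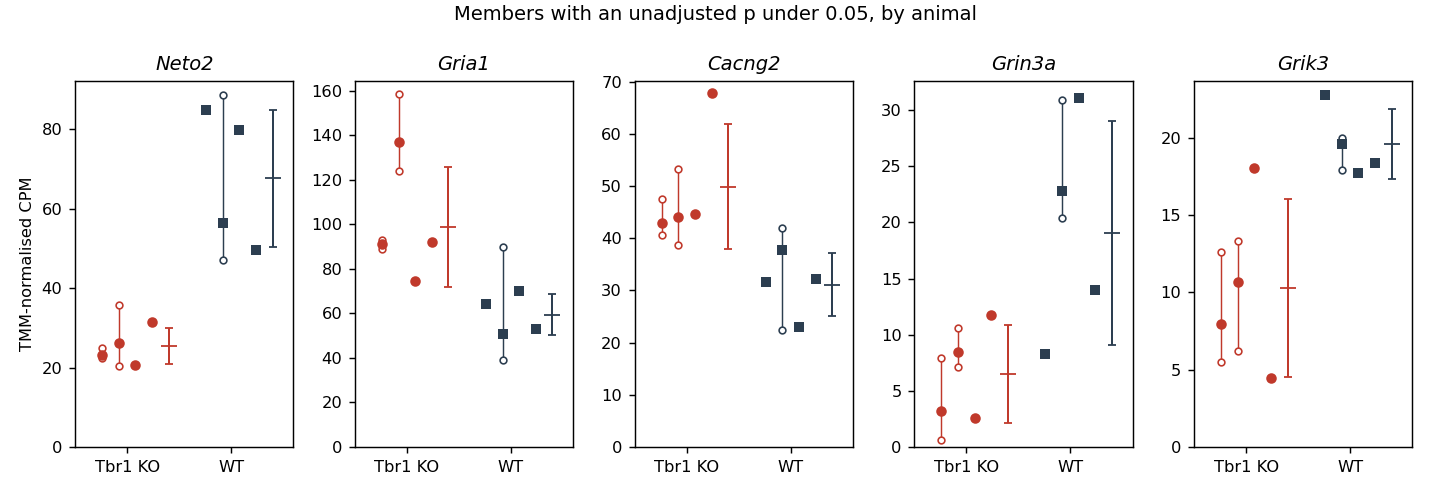
TMM-normalised CPM of the 5 members with an unadjusted p under 0.05, in Tbr1 KO (left, circles) and WT (right, squares) animals. Filled symbols are animals, open circles joined by a line are the libraries of animals with a pair of them, and the bar at the right of each group is the mean with 1 SD. Neto2, Gria1 and Cacng2 do not overlap between genotypes by animal, while Grin3a and Grik3 do.

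Because Tbr1 is a DNA-binding factor, the sequence upstream of the Neto2 start is shown, from RefSeq on GRCm38.p6. It is chr8:85700925-85701174, minus strand, the 250 bases before the annotated start, written 5′ to 3′ with the GC boxes (GGGCGG on either strand) in capitals.
Neto2 upstream: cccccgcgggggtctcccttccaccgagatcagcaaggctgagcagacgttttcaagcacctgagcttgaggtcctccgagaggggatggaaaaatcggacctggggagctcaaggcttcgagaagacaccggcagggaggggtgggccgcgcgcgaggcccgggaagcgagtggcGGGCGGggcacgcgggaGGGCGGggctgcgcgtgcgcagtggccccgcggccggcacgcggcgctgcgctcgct
The window is 72% G or C, against a median of 52.4% over all 32851 such windows, and holds 2 GC boxes, which 32.7% of all windows hold at least once. The core of the T-box motif, searched as GGTGTGA on both strands, was in none of the 27 windows of the 22 members in the table, the Neto2 window included, and in 3.33% of all windows. These matches describe the letters of the windows only.

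The kainate receptor subunits that Neto2 partners with gave no call. Of 5 tested, 1 had an unadjusted p under 0.05 in the edgeR test and DESeq2 called 0. Grik5, a subunit that needs another kainate subunit to form a channel at the surface, had the highest level per length of the family, 7.18 ± 2.93 CPM per kb in Tbr1 KO animals and 8.98 ± 3.88 CPM per kb in WT animals (SD, n = 4 each). By animal it was at 46.3, 53.5, 22.1 and 26.6 CPM in KO animals a to d, against 74.7, 34.7, 29.9 and 46.4 CPM in WT animals a to d. The groups overlapped widely.

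Grik3, a channel-forming subunit, was at 7.95, 10.6, 18.0 and 4.48 CPM in KO animals a to d, against 22.8, 19.6, 17.7 and 18.4 CPM in WT animals a to d. All mutant animals but c lay below the WT range, and KO animal c lay inside it. The log2 fold change was -0.93 ± 0.39 (SE), with an unadjusted p of 0.0332 and an adjusted p of 0.632 in the edgeR quasi-likelihood test. The other channel-forming subunits, Grik1 and Grik2, had log2 fold changes of 0.44 ± 0.45 and -0.36 ± 0.83, and Grik4, which like Grik5 acts in mixed channels, had -0.01 ± 0.30. Those 3 overlapped between genotypes.

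Relative to the summed kainate subunits Neto2 was lower, in a ratio that reuses the Neto2 values above and is no separate result. On the per-kb scale Neto2 amounted to 23.3%, 19.7%, 26.3% and 28.0% of the summed Grik levels in KO animals a to d, against 60.9%, 58.7%, 74.2% and 37.9% in WT animals a to d. The genotypes did not overlap in this ratio, which was described and not tested. Neto1, which in mouse hippocampus binds kainate and NMDA receptors, was too low to test. It had 109 counts over 3 Tbr1 KO animals, against 0 counts in the WT animals, which puts it at least 28.3-fold higher if the WT group is set at 3 counts in all. Library 3 gave 61 of these counts and 3 of the 6 mutant libraries had 0, and without library 3 the bound is 15.9-fold. Its mutant level was 0.656 CPM over the pooled animals, and with no filter on low counts its edgeR adjusted p was 0.550.

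Gria1 had the highest fold change among the AMPA receptor subunits, without passing the test over all genes. It encodes GluA1, a subunit known for activity-dependent delivery to synapses. It was at 91.4, 137, 74.7 and 92.2 CPM in KO animals a to d, against 64.1, 50.7, 70.2 and 52.8 CPM in WT animals a to d. All mutant animals lay above all WT animals, by a narrow margin between KO animal c and WT animal c. The log2 fold change was 0.73 ± 0.20 (SE), with an unadjusted p of 0.00299 and an adjusted p of 0.285 in the edgeR quasi-likelihood test, so Gria1 was not called. DESeq2 called it at an adjusted p of 0.0473, the lowest over 19 alternatives, whose highest was 0.644. By library the genotypes overlapped, since WT library 3 had 89.8 CPM and KO library 5 had 74.9 CPM.

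Gria2 encodes GluA2, the subunit whose edited form keeps calcium out of AMPA receptors, and Gria4 encodes GluA4, common in fast-signalling neurons. Gria4 had the highest mean level per kb of merged exons in the family, 21.4 ± 2.09 CPM per kb in Tbr1 KO animals and 18.0 ± 0.479 CPM per kb in WT animals (SD, n = 4 each). With the length of the longest transcript, Gria2 was above it in WT animals, at 24.4 against 20.9 CPM per kb. The order also turned in single animals, since the share of Gria1 was above that of Gria4 in KO animal b and the share of Gria2 above it in WT animal c, with both nearly equal in WT animal a. Gria4 was at 144, 116, 142 and 139 CPM in KO animals a to d, against 118, 111.5, 111.5 and 114 CPM in WT animals a to d. KO animal b lay inside the WT range, and the other mutant animals lay above it. The log2 fold change of Gria4 was 0.25 ± 0.12 (edgeR unadjusted p = 0.0598).

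Gria2 was at 256, 276, 200 and 257 CPM in KO animals a to d, against 291, 207, 292 and 221 CPM in WT animals a to d. Its log2 fold change was -0.03 ± 0.15, with a 95% interval of -0.32 to 0.26. Gria3, the other AMPA receptor subunit, was scarcely counted, at 1.13 ± 0.775 CPM in Tbr1 KO animals and 0.749 ± 0.869 CPM in WT animals (SD, n = 4 each), with 0 counts in 1 mutant and 2 WT animals. No AMPA receptor subunit passed the edgeR test over all genes, 1 of 4 had an unadjusted p under 0.05 and DESeq2 called 1.

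Shares of the AMPA receptor subunits are given for each animal. On the per-kb scale Gria1 made up 27.7%, 38.5%, 25.8% and 28.3% of the summed Gria levels in KO animals a to d, against 22.1%, 21.3%, 24.1% and 21.2% in WT animals a to d. Gria2 made up 30.1%, 30.1%, 26.9% and 30.7% in KO animals a to d, against 39.0%, 33.8%, 38.9% and 34.5% in WT animals a to d. Neither share overlapped between genotypes, while the Gria4 share did, at 31.1% to 47.0% in Tbr1 KO animals and 36.7% to 44.9% in WT animals. Among all ionotropic subunits the AMPA class held 61.7% to 64.6% in Tbr1 KO animals and 51.1% to 57.2% in WT animals. Of 37 shares and ratios computed within the classes, 4 did not overlap by animal: these 3 and the Neto2 ratio. They were described and not tested, and all 4 non-overlaps held when length was taken from the longest annotated transcript. That change of length is the same in every animal and reuses the same counts, so it is no separate check. The 3 AMPA shares draw on the same Gria counts and are not separate results. By library the Gria1 share overlapped, at 25.8% to 42.5% in Tbr1 KO libraries and 19.0% to 26.2% in WT libraries, and so did the Gria2 share, at 26.9% to 31.4% in Tbr1 KO libraries and 29.4% to 39.0% in WT libraries. The AMPA class did not, at 60.9% to 66.3% in Tbr1 KO libraries and 51.1% to 60.7% in WT libraries. WT library 3, which had the fewest reads in genes (8609845), gave the 26.2% for Gria1 and the 29.4% for Gria2. The other WT libraries were at 24.1% or less for Gria1 and 34.5% or more for Gria2. Counts per gene do not resolve splice forms or RNA editing.

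**Figure D2:**
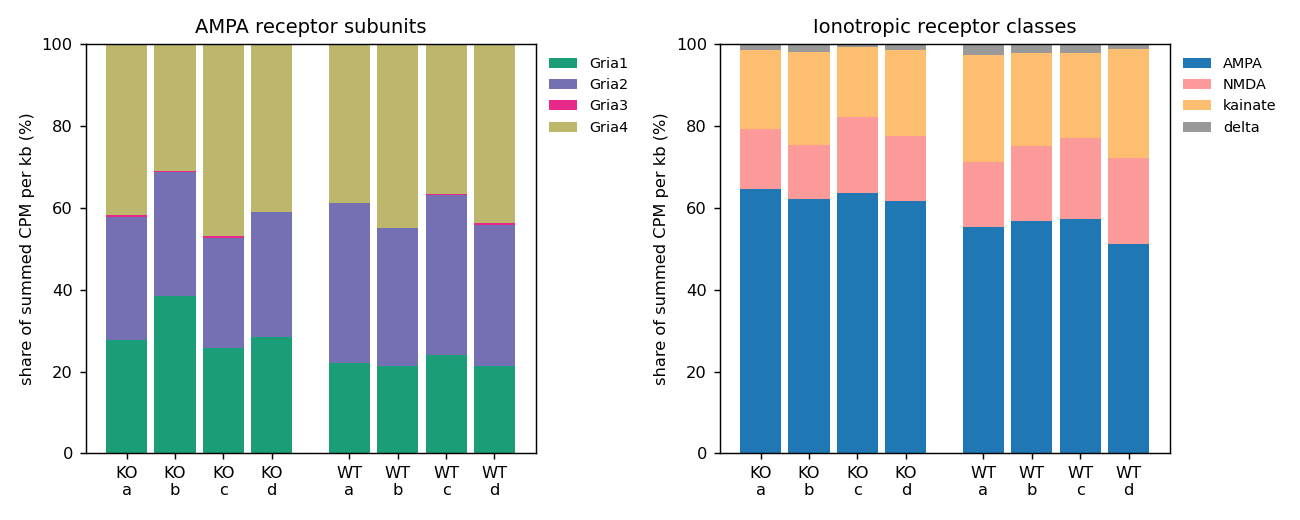
Shares of the summed level (CPM per kb of merged exons, in percent) in each animal, Tbr1 KO a to d left and WT a to d right. Left panel, AMPA receptor subunits: the Gria1 share is 25.8% or more in every mutant and 24.1% or less in every WT animal, and Gria3 is barely visible. Right panel, ionotropic classes: the AMPA share is 61.7% or more in every mutant and 57.2% or less in every WT animal.

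NMDA receptor subunits gave no call, with 1 of 6 tested at an unadjusted p under 0.05 and 0 by DESeq2. Grin1 encodes the obligatory subunit GluN1 and had the highest level per length, 9.13 ± 0.785 CPM per kb in Tbr1 KO animals and 10.5 ± 1.71 CPM per kb in WT animals (SD, n = 4 each). By animal it was at 93.1, 77.7, 94.5 and 88.9 CPM in KO animals a to d, against 107, 77.5, 107 and 115 CPM in WT animals a to d. The groups overlapped, with a log2 fold change of -0.20 ± 0.15.

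Grin2b encodes GluN2B, the glutamate-binding subunit typical of young neurons, and Grin2a encodes GluN2A, which joins it as synapses mature. Grin2b was at 42.5 ± 13.7 CPM in Tbr1 KO animals and 53.1 ± 18.4 CPM in WT animals (SD, n = 4 each). Grin2a had 0 counts in every WT library. In the mutants its 135 counts came from 4 of 6 libraries and 3 animals, at 2.18, 0.0359, 1.04 and 0 CPM in KO animals a to d, and 87 of them came from library 1. That is at least 35.1-fold higher in Tbr1 KO animals, with the WT group set at 3 counts in all, at a pooled mutant level of 0.812 CPM, and the bound is 15.2-fold without library 1. Grin2a was too low for the test, and with no filter on low counts its edgeR adjusted p was 0.550.

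Grin3a encodes GluN3A, a glycine-binding subunit of juvenile neurons that lowers calcium entry. It was at 3.16, 8.43, 2.58 and 11.8 CPM in KO animals a to d, against 8.31, 22.8, 31.1 and 14 CPM in WT animals a to d. KO animals b and d lay above the lowest WT animal, a, so the genotypes overlapped. The log2 fold change was -1.55 ± 0.54 (SE), the most negative of the 31, with an unadjusted p of 0.0141 and an adjusted p of 0.511 in the edgeR quasi-likelihood test. The adjusted p ranged from 0.0781 to 0.779 over the alternatives. By library it varied from 0.617 to 7.94 CPM between the pair of KO animal a.

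The remaining subunits, Grin2c, Grin2d and Grin3b, averaged 0.668 to 4.95 CPM in Tbr1 KO animals and 0.478 to 2.89 CPM in WT animals. Their log2 fold changes were 1.37 ± 1.22, 0.78 ± 0.67 and 0.48 ± 1.596. Exons of Grin3b and Grin1 overlap Tmem259 and Grin1os on the opposite strand over 1059 and 1307 bases, and reads there cannot be assigned without strand. Grid1, the delta receptor that binds cerebellin rather than gating a fast current, was at 7.84, 10.8, 3.41 and 7.33 CPM in KO animals a to d. It was at 13.5, 9.12, 10.9 and 6.44 CPM in WT animals a to d, which overlaps the mutants (log2 fold change -0.44 ± 0.43).

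Among AMPA receptor auxiliary subunits the most abundant did not differ detectably. Cnih2, a cornichon that slows AMPA receptor closing, was the highest of the 33 genes per length, at 281 ± 64.9 CPM per kb in Tbr1 KO animals and 264 ± 26.1 CPM per kb in WT animals (SD, n = 4 each). It was at 464, 459, 311 and 305 CPM in KO animals a to d, against 399, 362, 314 and 373 CPM in WT animals a to d. Its log2 fold change was 0.09 ± 0.16, with a 95% interval of -0.22 to 0.39. Cnih3 averaged 5.89 CPM in Tbr1 KO animals and 5.59 CPM in WT animals.

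Cacng5 encodes TARP gamma-5 and was the next highest, at 115 ± 9.63 CPM per kb in Tbr1 KO animals and 113 ± 25.7 CPM per kb in WT animals (SD, n = 4 each). It was at 435, 481, 395 and 459 CPM in KO animals a to d, against 364, 342, 556 and 464 CPM in WT animals a to d, and its log2 fold change was 0.04 ± 0.15. It made up 77.5% to 85.3% of the summed Cacng levels per kb in Tbr1 KO animals and 78.2% to 85.5% in WT animals. Sorted pools of both genotypes held far more transcript of this TARP than of Cacng2, Cacng3, Cacng4, Cacng7 or Cacng8.

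Cacng2 encodes stargazin, the TARP that carries AMPA receptors to the surface and anchors them to postsynaptic scaffolds. It was at 42.9, 44.1, 44.6 and 67.9 CPM in KO animals a to d, against 31.6, 37.7, 23.0 and 32.2 CPM in WT animals a to d. All mutant animals lay above all WT animals, and KO animal d stood above the other 3 mutants. The log2 fold change was 0.68 ± 0.22 (SE), with an unadjusted p of 0.0103 and an adjusted p of 0.469 in the edgeR quasi-likelihood test, and 0.174 to 0.780 over the alternatives. Among 6 Cacng members 0 passed the edgeR test over all genes, 1 had an unadjusted p under 0.05 and DESeq2 called 0. Log2 fold changes of the other 4 besides Cacng5 ran from -0.56 ± 0.78 (Cacng7) to -0.17 ± 0.39 (Cacng3).

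Neto2, Gria1 and Cacng2 were the 3 tested members with no overlap between genotypes, or 9.68% of 31, where 5.06% of all tested genes showed none. The share of all genes was 2.48% lower in Tbr1 KO animals (1 member) and 2.58% higher (2 members). Beside the higher Gria1 and Cacng2 values, summed markers of some other retinal cells were higher in the mutants without overlap. The 9 amacrine markers used summed to 310 to 336 CPM in Tbr1 KO animals and 262 to 289 CPM in WT animals, with a higher mutant mean for 6 of 9. Most of that sum was Pax6, at a mean of 278 CPM in Tbr1 KO animals and 234 CPM in WT animals. Of the 6 amacrine markers tested, 1 showed no overlap, where 5.06% of all tested genes showed none. That was Pax6, at 260 to 296 CPM in Tbr1 KO animals and 227 to 238 CPM in WT animals. Gad1 averaged 1.06 CPM in Tbr1 KO animals and 1.05 CPM in WT animals. The vesicular transporter Slc32a1, which defines inhibitory neurons, averaged 0.446 CPM in Tbr1 KO animals and 0.256 CPM in WT animals. Means of Gad2, Chat and Slc18a3 went the other way, lower in the mutants with overlap. They were 8.53, 0.00897 and 0.0987 CPM in Tbr1 KO animals, against 18.0, 0.612 and 0.684 CPM in WT animals.

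Müller glia and progenitor markers summed to 501 to 826 CPM in Tbr1 KO animals and 361 to 461 CPM in WT animals, with a higher mutant mean for 11 of 14. Clu and Dkk3 passed the test, higher (edgeR adjusted p of 0.0465 and 0.0495). They averaged 103 and 265 CPM in Tbr1 KO animals, against 60.1 and 158 CPM in WT animals. By mean, Dkk3, Clu and Apoe made up most of that sum. Clu, Dkk3 and Sfrp2 were the 3 of 12 tested without overlap, where 5.06% of all tested genes showed none. An unadjusted p under 0.05 was reached by 5 of the 12 tested, against 7.09% of all tested genes. Sfrp2 was lower without overlap, at 2.60 to 10.8 CPM in Tbr1 KO animals and 15.3 to 21.4 CPM in WT animals. Means of Fabp7, Rlbp1 and Sox2 were 47.9, 18.8 and 2.68 CPM in Tbr1 KO animals, against 15.5, 8.65 and 0.146 CPM in WT animals, with overlap. Aqp4 averaged 0.585 CPM in Tbr1 KO animals and 0.725 CPM in WT animals. Horizontal cell markers summed to 96.4 to 128 CPM in Tbr1 KO animals and 48.0 to 68.2 CPM in WT animals, higher in the mutants for 4 of 5, with the defining marker Lhx1 at 0 counts throughout. Sept4 and Calb1 made up most of that sum. They averaged 73.7 and 30 CPM in Tbr1 KO animals, against 42.3 and 15.0 CPM in WT animals. Onecut1 and Onecut2 overlapped between genotypes, at 0.624 and 5.39 CPM in Tbr1 KO animals, against 0.200 and 4.92 CPM in WT animals. All 18 photoreceptor markers had a higher mutant mean, and their sums overlapped, with KO animal a lowest of all animals (75.9 CPM) and KO animal c highest (1464 CPM). Bipolar markers were higher for 6 of 9, at sums of 18.7 to 231 CPM in Tbr1 KO animals and 17.8 to 63.7 CPM in WT animals. KO animal c had the highest bipolar sum, and also the highest Müller and horizontal sums. The part of these markers and of other cells in the Gria1 and Cacng2 values was not tested.

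Metabotropic receptors gave no call, with 0 of 6 called by the edgeR test, 0 at an unadjusted p under 0.05 and 0 by DESeq2. Grm3 and Grm7, both coupled to inhibitory G proteins, held the highest levels per length. Grm7 was at 16.0 ± 4.06 CPM per kb in Tbr1 KO animals and 12.5 ± 2.32 CPM per kb in WT animals, and Grm3 at 12.7 ± 4.49 CPM per kb in Tbr1 KO animals and 12.6 ± 4.43 CPM per kb in WT animals (SD, n = 4 each). On this length their levels overlapped among the animals of each genotype. With the length of the longest transcript Grm7 was higher, at 22.4 CPM per kb against 12.7 for Grm3 in Tbr1 KO animals and 17.6 against 12.6 in WT animals.

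By animal Grm7 was at 88.2, 125, 67.2 and 96.1 CPM in KO animals a to d, against 56.7, 83.2, 86.3 and 69.2 CPM in WT animals a to d. Grm3 was at 32.7, 47.4, 22.7 and 52.6 CPM in KO animals a to d, against 23.96, 43.0, 55.1 and 32.1 CPM in WT animals a to d. Grm4 and Grm8, of the same group as Grm7, averaged 31.2 and 29.7 CPM in Tbr1 KO animals, against 23.4 and 28.1 CPM in WT animals. Grm5, which couples to phospholipase C, averaged 4.43 CPM in Tbr1 KO animals and 5.39 CPM in WT animals, and Grm2 averaged 1.86 CPM in Tbr1 KO animals and 1.44 CPM in WT animals. Log2 fold changes of the 6 receptors ran from -0.28 ± 0.69 (Grm5) to 0.42 ± 0.33 (Grm4).

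**Figure D3:**
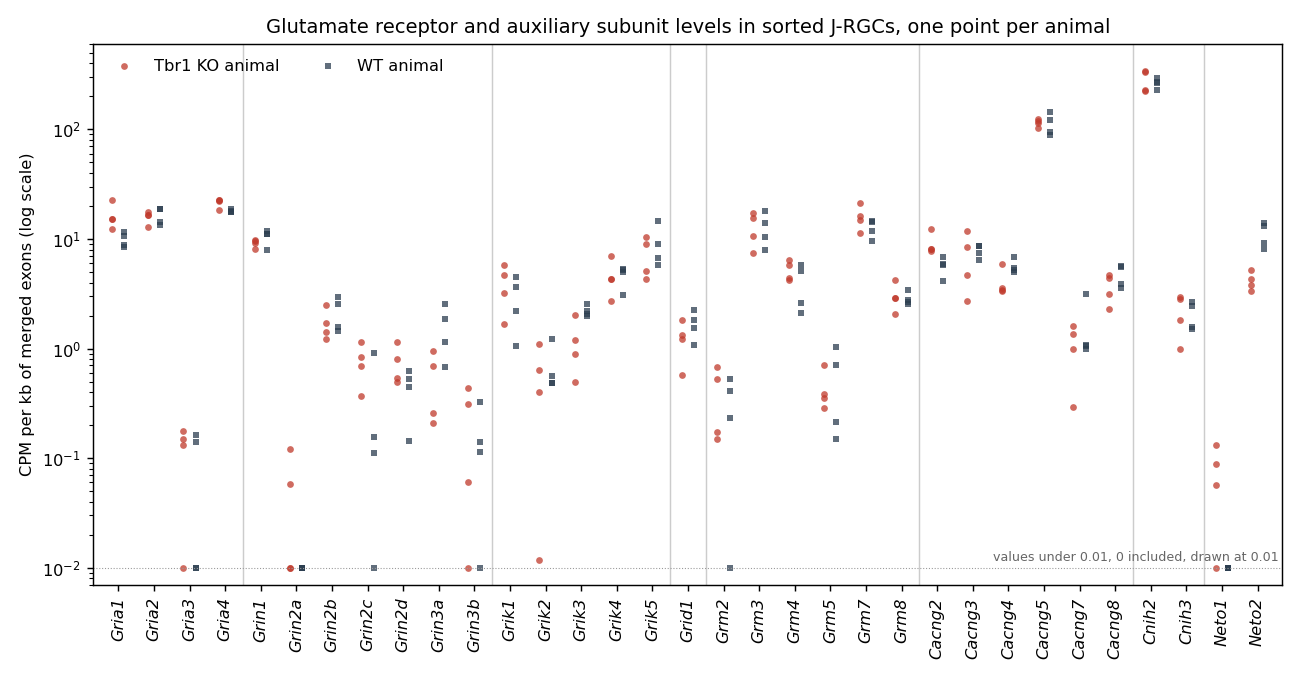
Level of each of the 33 genes in CPM per kb of merged exons (log axis) in 4 Tbr1 KO animals (circles, left of each pair) and 4 WT animals (squares, right), with values under 0.01 drawn at 0.01. Vertical lines part the classes. Cnih2 and Cacng5 lie highest in both genotypes, and Grin2a and Neto1 are at 0 in every WT animal.

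**Figure D4:**
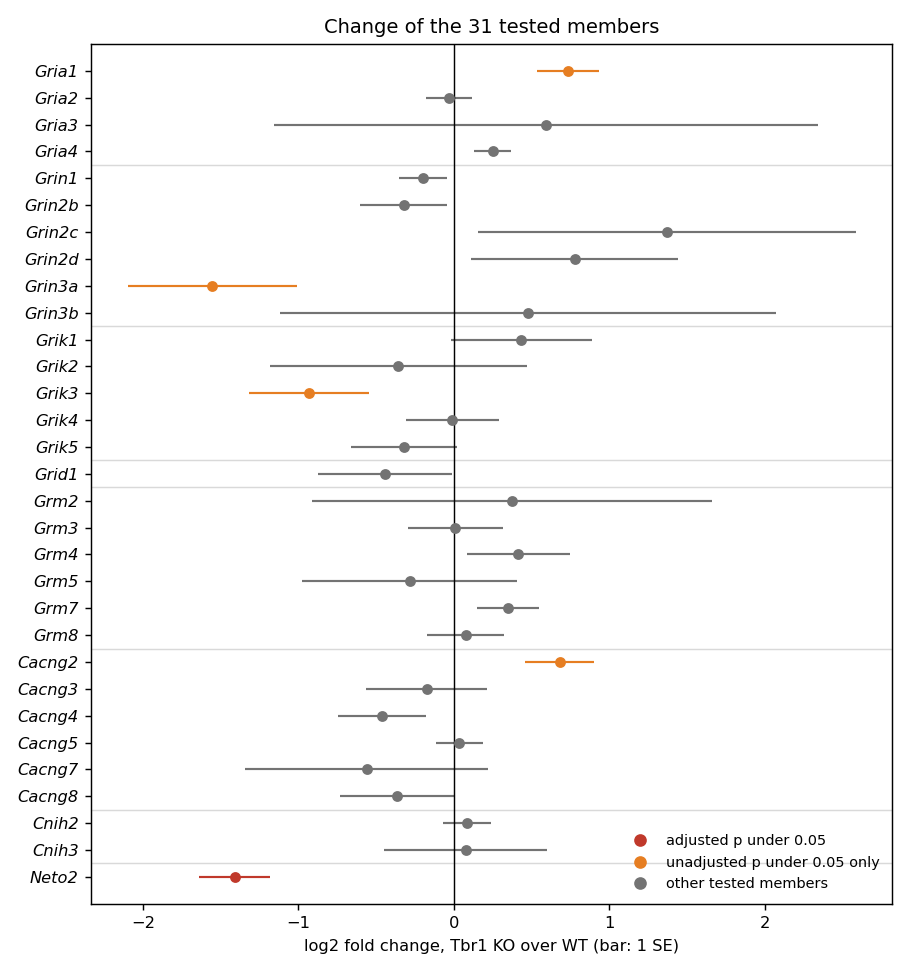
Log2 fold change of the 31 tested members, Tbr1 KO over WT, with 1 SE, ordered by class. Neto2 at -1.41 has an adjusted p under 0.05, Gria1, Grin3a, Grik3 and Cacng2 have an unadjusted p under 0.05 only, and the widest bars belong to genes of a few CPM such as Gria3 and Grin3b.

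Proteins that work with these receptors were read from 5 further lists, none of which held a called gene in the edgeR test. Over all tested genes, 7.09% had an unadjusted p under 0.05 in that test and DESeq2 called 1.12%. Of 32 postsynaptic scaffold and trafficking genes tested, 5 had an unadjusted p under 0.05 and DESeq2 called 1, and the median log2 fold change was -0.05. The lowest p belonged to Lin7a, which encodes a scaffold that gathers membrane proteins with Cask, at 65.4 ± 11.4 CPM in Tbr1 KO animals and 106 ± 9.22 CPM in WT animals (SD, n = 4 each). The log2 fold change of Lin7a was -0.69 ± 0.16 (edgeR adjusted p = 0.144), and DESeq2 called it at an adjusted p of 0.0114. Its relative Lin7b was at 11.6 ± 1.65 CPM in Tbr1 KO animals and 22.5 ± 3.86 CPM in WT animals. Camk2a, the kinase that phosphorylates GluA1 and TARPs, was at 173 ± 10.2 CPM in Tbr1 KO animals and 131 ± 13.8 CPM in WT animals, a log2 fold change of 0.41 ± 0.12. Grip1, which binds the tails of GluA2, was at 201 ± 25.6 CPM in Tbr1 KO animals and 243 ± 17.3 CPM in WT animals. The genotypes overlapped for Grip1 and did not for 4 of the 32, where 5.06% of all tested genes showed no overlap. Those were Lin7a, Lin7b, Camk2a and Shank3, a postsynaptic scaffold at 11.3 to 19.3 CPM in Tbr1 KO animals and 6.92 to 11.2 CPM in WT animals (edgeR adjusted p = 0.678), named here after its values were seen.

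Of 21 G proteins and effectors of metabotropic receptors, 4 had an unadjusted p under 0.05 and DESeq2 called 1, with a median log2 fold change of 0.11. Plcb4, a phospholipase C, was at 74.3 ± 4.11 CPM in Tbr1 KO animals and 37.4 ± 11.7 CPM in WT animals (SD, n = 4 each), with no overlap. Its log2 fold change was 0.99 ± 0.23 (edgeR adjusted p = 0.144), and DESeq2 called it at an adjusted p of 0.00541. Plcb3 was at 12.4 ± 2.20 CPM in Tbr1 KO animals and 6.53 ± 1.86 CPM in WT animals. Its genotypes did not overlap either, where 5.06% of all tested genes showed no overlap. The cyclase gene Adcy5 and the G protein gene Gnai1 had log2 fold changes of 0.61 ± 0.24 and -0.39 ± 0.16.

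Of 19 further AMPA receptor auxiliary, assembly and clustering genes, 2 had an unadjusted p under 0.05 and DESeq2 called 0. Nptx2, a pentraxin that clusters AMPA receptors, was at 6.29 ± 3.86 CPM in Tbr1 KO animals and 25.1 ± 16.2 CPM in WT animals (SD, n = 4 each), with overlap. Syndig1, which promotes excitatory synapse formation, had a log2 fold change of 0.78 ± 0.32. Of 14 genes for glutamate transport and synthesis, 1 had an unadjusted p under 0.05 and DESeq2 called 0. That gene was Slc38a2, a glutamine carrier, at 41.6 ± 5.28 CPM in Tbr1 KO animals and 28.7 ± 3.48 CPM in WT animals. The vesicular glutamate transporter Slc17a6, by which ganglion cells load their own transmitter, had a log2 fold change of 0.05 ± 0.10. The 3 adenosine deaminase genes, of which Adarb1 encodes the enzyme that edits GluA2 transcripts, gave 0 at an unadjusted p under 0.05 and 0 by DESeq2. Adarb1 was at 59.7 ± 7.74 CPM in Tbr1 KO animals and 55.7 ± 15.0 CPM in WT animals, and Adar and Adarb2 had log2 fold changes of -0.37 ± 0.24 and -0.57 ± 0.66.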

How the data were processed

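The data are 11 single-end RNA-seq libraries, each from a sorted pool of J-RGCs. Each deposited file holds unnormalised whole read counts by gene symbol. Per the labels' protocols, the kits were Smart-seq2 and Nextera XT. Per the submitters' processing notes, the tools were HTSeq 0.6.1, TopHat2 2.0.10 and Trimmomatic 0.32 and the build mm10 (GRCm38). The sources used here give neither their roles nor the annotation or strand option, and Smart-seq2 does not mark strand. Reads with no feature (20.0% to 24.8%), more than 1 alignment (13.2% to 14.6%) or an ambiguous gene (1.31% to 1.47%) stayed out of library sizes and tests. Without molecular identifiers, floors cover counting error only.

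Libraries of 1 animal were summed. Genes were filtered with filterByExpr (13957 kept), scaled with TMM and tested in edgeR 4.0.16 (R 4.3.3) by robust quasi-likelihood, calling p under 0.05 after Benjamini-Hochberg adjustment. The SE is the log2 fold change divided by the root of F, and 95% intervals are normal. Alternatives were DESeq2 1.42.0, other scalings, filters and units of replication, and leaving out each animal. Permutation tests used log2(CPM + 0.5). On simulated counts with the real means and library sizes over 13957 genes, spread followed the fitted trend with level, not each gene's own. Changed genes were drawn only from those with a mean over 5 CPM. Of these, 52% of 100 with a 2-fold change were recovered, and 81% of 100 with a 4-fold change, beside 5 false calls. The test made 1 call when nothing was changed.

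Lengths and positions came from GENCODE M21 (GRCm38), which matched all 33 members. Members and lists were chosen with earlier results of these data known. Values by animal are given for members with an unadjusted p under 0.05 and for the highest member per kb of each class, and up to 4 related genes are named per list, by p. Plots used matplotlib 3.10.9. No library was left out, and 1 amacrine marker is not reported here.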

Additional observations from a re-analysis of the deposited data

Results flagged for a closer look

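Of 66 sets of 4 animals, 1 per member and genotype, 2 were at 0 throughout (Grin2a and Neto1 in WT animals). Of the other 64, 7 held an animal whose gap to its nearest neighbour took up a larger part of the range than the 95% critical value of Dixon's test for 4 samples. Chance flags about 1 in 20 such sets. KO animal d was highest for Cacng2, at 67.9 CPM against 42.9 to 44.6 CPM in the other mutants, and for Cacng4, at 21.3 CPM against 12.1 to 12.8 CPM. KO animal b was lowest for Gria4, at 116 CPM against 139 to 144 CPM in the other mutants. WT animal c was highest for Grin2c, at 4.56 CPM against 0 to 0.777 CPM, and for Grik2, at 16.1 CPM against 6.45 to 7.43 CPM. WT animal d was highest for Cacng7, at 7.66 CPM against 2.42 to 2.62 CPM, and WT animal a was lowest for Grik4, at 18.2 CPM against 29.7 to 31.5 CPM.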

How the results depend on the processing

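The fall of Neto2 kept its sign under all 19 alternatives, but its call in only 3 of 8 fits without 1 animal. The call held under 11 of 11 other settings (edgeR or DESeq2 adjusted p of 4.18e-06 to 0.0459). Those settings reused the same animals, and libraries as replicates and the replicate block took libraries, not animals, as the unit. The number of genes changed was 40, against 156 with DESeq2, 84 with libraries as replicates and 17 to 44 without 1 animal: 22, 17, 27 and 25 without KO animals a to d, and 44, 18, 27 and 27 without WT animals a to d. The number of members changed was 1, against 2 with DESeq2 and 0 to 1 without 1 animal. No scaling moved the median of all genes by over 0.1 (log2).

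Same-numbered libraries of the genotypes did not deviate together (correlations of -0.0306 to 0.128), and only number 5 correlated best with its own, so the numbers were not read as pairs. With the replicate block 43 genes changed and Neto2 had a log2 fold change of -1.47 (edgeR adjusted p = 0.0284). That fit took single libraries as replicates, so libraries of 1 animal counted as independent and its p is no comparison of animals.

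Some uncalled log2 fold changes, up to 0.59 in size (Gria3), changed sign, and the cause was not tested. With upper-quartile scaling and library totals only, Grik4 was at 0.0014 and 0.0021. With libraries as replicates Gria2, Grin3b, Grm2 and Grm3 were at 0.032, -0.16, -0.33 and -0.081. With the first library of each animal Gria3, Grik2 and Cnih3 were at -0.21, 0.0057 and -0.14. With the second, Grik4, Grin3b, Grm2, Grm3 and Cacng5 were at 0.035, -1.69, -0.30, -0.091 and -0.037. With the replicate block Gria2, Grin3b, Grm3, Grm5 and Cnih3 were at 0.035, -1.62, -0.15, 0.37 and -0.29. Without 1 animal, log2 fold changes spanned -0.12 to 0.065 for Gria2, -0.22 to 1.23 for Grin3b, -0.98 to 0.069 for Grik2, -0.28 to 0.18 for Grik4 and -0.55 to 0.0091 for Grik5. They spanned -0.052 to 0.82 for Grm2, -0.17 to 0.23 for Grm3, -0.63 to 0.28 for Grm5 and -0.13 to 0.23 for Grm8. They spanned -0.56 to 0.093 for Cacng3, -0.061 to 0.18 for Cacng5, -0.83 to 0.031 for Cacng7, -0.015 to 0.18 for Cnih2, -0.12 to 0.31 for Cnih3 and -0.022 to 0.29 for Adarb1.

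With 4 animals a genotype, simulated 2-fold changes were called in 52% of the genes changed, which left out genes of low level. Detection by level was not tested.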
